A study of Mus musculus with 15 samples.

Results

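Neuropeptide precursors and the genes that package and process them were followed as 39 listed genes among the 57180 gene identifiers of the deposited tables. They comprised 29 peptide precursors, 5 granins and 5 genes for prohormone processing, and each was found once by its mouse symbol. The list was proposed with earlier results of these data known, among them Gal and Gcg in the AMPK comparison, so that the members were in part selected on the fold changes of that comparison, whose values are given as a description. Counts past the threshold there are printed beside the share over all genes, and nothing is read from them. The study sequenced polyadenylated RNA from the brainstem of C57BL/6 mice to ask how AMPK, an energy-sensing kinase, and Lmx1b, a transcription factor of dorsal-ventral patterning and of serotonergic neurons, act on the centers that control ventilation. In the AMPK experiment, neonatal mice, in their first postnatal days by the study's methods, gave 3 libraries labelled AMPK+/+ (WT) and 3 labelled AMPK-/-, a knockout of the α2 subunit in the study's results. In the Lmx1b experiment, embryos, whose age is not given in the sources used here, gave 3 libraries each labelled LMX1B+/+ (WT), LMX1B+/- and LMX1B-/-, written Lmx1b+/- and Lmx1b-/- in what follows. The alleles were not described as limited to one cell type, and no library was given a treatment. The samples are whole tissue, and the sources do not say how many animals each library holds.

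Neuropeptides are made as larger precursors that enter the secretory pathway, are sorted into dense-core granules together with granins, and are cut there by prohormone convertases at pairs of basic residues. Carboxypeptidase E then removes the basic residues that remain, and peptidylglycine amidating monooxygenase amidates many of the ends. In the brainstem, such peptides are made by neurons of the nucleus of the solitary tract, the raphe nuclei, the parabrachial complex and the ventral respiratory column, where they act beside fast transmitters on breathing, feeding and visceral reflexes.

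Libraries were sequenced to total counts of 28833130 to 37441679 in the Lmx1b table, whereas the AMPK table held 4 libraries of 14975095 to 17384171 counts and the much shallower WT 2 and AMPK-/- 3, of 291212 and 335986 counts. One read was worth 3.33 and 3.02 CPM (a gene's counts relative to its TMM-scaled library total) in those shallow libraries, and a count of 0 there allows up to 9.98 and 9.07 CPM. Limits of this kind cover counting error only. Prkaa2, the gene of the α2 subunit, had 21.9, 26.6 and 29.7 CPM in WT and 25.4, 22.3 and 12.1 CPM where the label was AMPK-/- (log2 fold change -0.20, SE 0.23, adjusted p = 0.659), so that its counts did not separate these groups. WT 3 of this experiment held skeletal muscle genes (10 of 10 listed) at 852 CPM, against 6.66 to 15.7 CPM in the other 5 libraries. Lmx1b stood at 22.5, 16.0 and 9.73 CPM in WT embryos, but at 1.45, 1.13 and 0.848 CPM in the Lmx1b-/- embryos (adjusted p = 0.00287). The libraries labelled Lmx1b+/- held 30.5, 11.9 and 14.2 CPM of Lmx1b, which did not differ from WT beyond the spread (adjusted p = 0.618). The Lmx1b+/- libraries also stood apart as a group, with erythroid genes (5 of 5 listed, none at 0) summing to 3546 to 7508 CPM against 508 to 1248 in WT and 1060 to 2379 in Lmx1b-/-. Neuronal markers (7 of 7 listed, none at 0) summed to 3159 to 3554 CPM in neonatal WT, 3850.0 to 3980 CPM in the libraries labelled AMPK-/- and 4565 to 5605 CPM in the prenatal libraries. Of the 39 members, 32 passed the filter on low counts in each experiment.

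Among the members, Cpe held the highest length-scaled level in WT brainstem, followed by granins and Pcsk1n in the neonatal libraries and by Sst in the prenatal ones. Levels between genes are compared here in RPKM (the authors' values, counts relative to the library's own total and to gene length, without TMM), given as mean ± SD of 3 libraries. In neonatal WT, Cpe, the carboxypeptidase, stood first at 256 ± 25.9 RPKM. Scg2, the secretogranin, followed at 152 ± 23.6 RPKM and Pcsk1n, which encodes the convertase inhibitor proSAAS, at 128 ± 8.21 RPKM. Next came 2 chromogranins, Chgb at 114 ± 22.9 and Chga at 90.8 ± 6.41 RPKM. The highest peptide precursors were Sst (somatostatin) at 84.4 ± 34.9 RPKM and Penk (the enkephalin precursor) at 78.8 ± 17.5 RPKM, which did not differ from Chga or from Scg3 (79.8 ± 15.6 RPKM) beyond their spread. In prenatal WT the first places were again held by Cpe (217 ± 40.1 RPKM), then Sst (94.7 ± 18.9), Scg2 (87.5 ± 12.0) and Pcsk1n (66.6 ± 21.5), and the latter 3 overlapped in their spread. Below these came Scg3 (40.3 to 54.6 RPKM), Chga (39.2 to 49.1 RPKM) and Chgb (32.1 to 51.3 RPKM). Among the precursors after Sst, prenatal Penk stood at 29.7 ± 5.46 RPKM and Npy, which encodes neuropeptide Y, at 19.5 ± 3.15 RPKM. The convertases stood far below Cpe. Pcsk2 held 15.5 ± 1.75 RPKM in neonatal and 6.80 ± 1.27 RPKM in prenatal WT, and Pcsk1 6.56 ± 0.538 and 1.80 ± 0.343 RPKM.

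**Figure D1:**
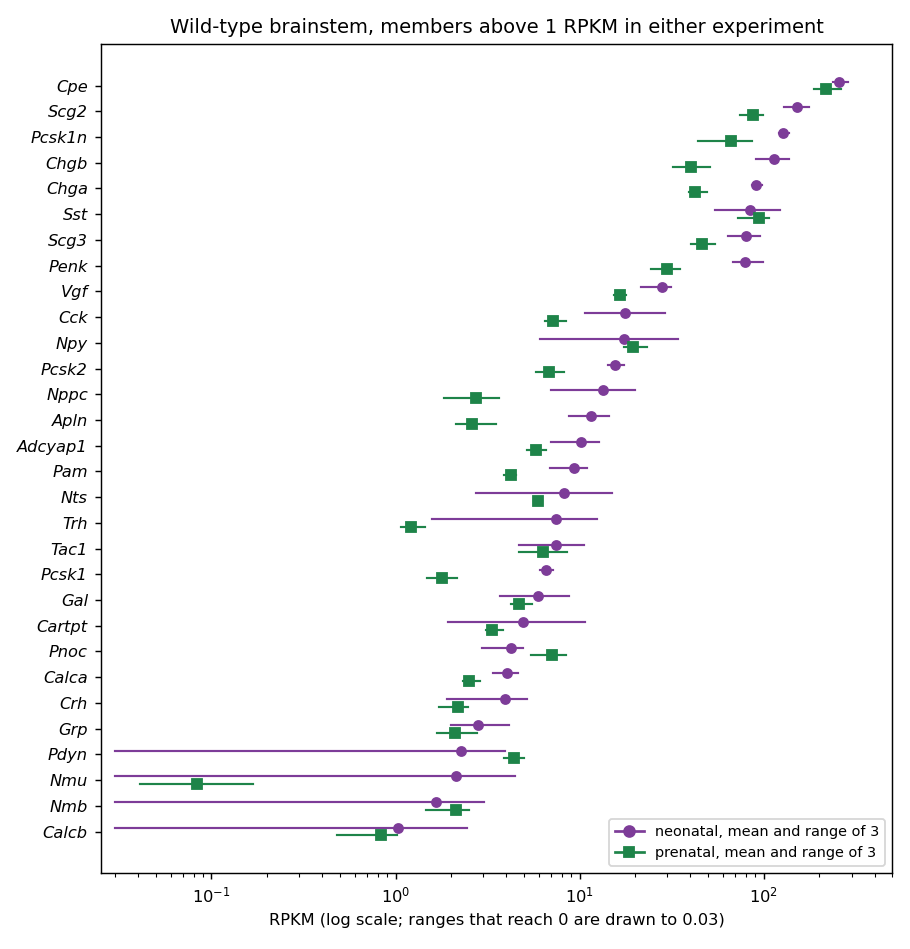
Length-scaled level (RPKM, log axis) of the 30 members above 1 RPKM in WT brainstem of either experiment, with the mean (circle, neonatal; square, prenatal) and the range of 3 libraries (line). Cpe is at the top in both experiments, and the granins and Penk lie to the right in the neonatal libraries.

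Neonatal and prenatal WT libraries were set side by side without a test. Of the 31 members past the filter in both tables, 16 had all 3 neonatal libraries above all 3 prenatal ones (51.6%, against 19% of the 17140 genes past the filter in both), and 3 had them below (9.68%, against 37.9%). All 5 granins and all 5 processing genes were among the 16. Chgb was at 369.7, 306 and 226 CPM in neonatal and 91.1, 104 and 113 CPM in prenatal WT. Pcsk1, the convertase of the regulated secretory pathway, was at 39.6, 33.3 and 32.4 CPM against 8.65, 9.73 and 9.80 CPM, the largest ratio of the means (3.73) among these 10 granule genes. The precursors in the same direction were Penk, Cck, Adcyap1, Calca, Nppc and Apln. Penk was at 159, 109.8 and 101 CPM in neonatal and 41.3, 57.6 and 38.9 CPM in prenatal WT. For Nppc, the C-type natriuretic peptide, the values were 20.6, 13.3 and 6.60 CPM against 1.97, 3.81 and 2.30 CPM. Apln (apelin) was at 35.5, 26.6 and 41.2 CPM against 11.5, 6.68 and 5.59 CPM. The 3 members with lower neonatal values were Gcg, Pdyn and Pnoc, of which Pnoc, the nociceptin precursor, was at 10.5, 9.98 and 5.78 CPM against 16.4, 11.7 and 14.7 CPM. For Gcg, at 0, 0 and 0.0584 CPM against 0.281, 0.935 and 0.158 CPM, the 0 of the shallow library allows more than any prenatal value, so that its order is not established. The highest neuropeptide of the embryo, Sst, did not separate, at 87.2, 53.2 and 35.4 CPM against 79.4, 52.5 and 61.0 CPM. Markers of other cells also differed between these WT libraries. Oligodendrocyte lineage genes (7 of 7 listed) summed to 10971 to 19062 CPM in neonatal and 353 to 408 CPM in prenatal WT. Choroid plexus genes (7 of 7 listed) went the other way, at 21.1 to 33.3 CPM in neonatal and 242 to 389 CPM in prenatal WT. Age, experiment, depth, tissue make-up and the separate scaling of the tables cannot be told apart here.

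The members were also compared by a sequence in their promoters that the list did not use. RefSeq promoters (mouse build GRCm38.p6, 250 bases before each start searched on both strands) were matched for 32 of the 39 members. The full cAMP response element TGACGTCA, a palindrome that CREB-family factors bind, was present in 6 of them (18.8%), against 1.77% of the 27025 genes with a promoter. The 6 windows of 36 bases are shown because they carry the shared motif in genes of 3 roles: peptide precursors, granins and a convertase. Capitals mark the motif, and each window is printed 5′ to 3′ on the strand of its gene.
Cartpt (chr13:99900774-99900809, minus strand): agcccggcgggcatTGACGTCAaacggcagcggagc
Chgb (chr2:132781556-132781591, plus strand): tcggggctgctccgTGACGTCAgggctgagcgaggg
Pcsk1 (chr13:75089765-75089800, plus strand): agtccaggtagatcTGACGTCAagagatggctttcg
Scg2 (chr1:79440073-79440108, minus strand): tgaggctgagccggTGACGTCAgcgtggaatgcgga
Sst (chr16:23890871-23890906, minus strand): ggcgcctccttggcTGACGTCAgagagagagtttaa
Ucn (chr5:31138918-31138953, minus strand): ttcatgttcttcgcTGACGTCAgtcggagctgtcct
The first base of the motif lay 112 bases before the start in Cartpt, 78 in Pcsk1, 72 in Chgb, 68 in Scg2, 48 in Sst and 44 in Ucn. Their levels did not run together: in neonatal WT, Scg2 held 152 ± 23.6 RPKM and Cartpt 4.90 ± 5.07 RPKM, and Ucn was detected in 1 of 3 libraries. The letters TATAAA were found in 8 of the 32 members (25%), Gcg, Vip and Pomc among them, against 14.3% of all genes. The letters TAATTA, a core that LIM homeodomain factors such as Lmx1b can bind, were present in 2 members, Pomc and Tac1 (6.25%, against 5.65%). A match is a description of these windows and was not tested for binding.

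In the AMPK comparison, 9 peptide precursors and the granin Scg2 were higher in the libraries labelled AMPK-/- and Pcsk1n was lower. Gal and Gcg, known when the list was proposed, were the most clearly separated in edgeR. The threshold (adjusted p under 0.05 in edgeR's quasi-likelihood test over all genes) was passed by 10 of 32 tested members in the higher direction, where 3.77% of all tested genes passed it. It was passed by 1 member in the lower direction, where the share over all genes was 5.17%. Groups did not overlap for 7 of the 32 members, against 26.6% of all genes. Since this comparison chose the family, nothing is read from these shares. The median log2 fold change was 0.17 over the 32 members and -0.01 over all 17397 genes tested. The summed level of the 29 peptide precursors was 519, 363 and 289 CPM in WT 1 to 3 and 556, 648 and 698 CPM in AMPK-/- 1 to 3. Neuronal markers were also higher in every AMPK-/- library, at 3159, 3324 and 3554 CPM in WT and 3849.9, 3889 and 3979.9 CPM in AMPK-/-, and their part in these values was not tested.

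Gal encodes galanin, a largely inhibitory peptide of the locus coeruleus, the raphe and the retrotrapezoid nucleus. It gave 64, 2 and 45 counts in WT 1 to 3, or 4.21, 6.66 and 2.63 CPM. The libraries labelled AMPK-/- gave 397, 410 and 12 counts, or 26.2, 26.6 and 36.3 CPM. All 3 of the latter lay above all WT libraries (a log2 fold change of 2.98 with SE 0.30). Gcg, which encodes preproglucagon, the source of glucagon-like peptides in neurons of the nucleus of the solitary tract, had 0, 0 and 1 counts in WT and 82, 91 and 4 counts in AMPK-/- 1 to 3. Levels of Gcg were thus 5.42, 5.89 and 12.1 CPM in AMPK-/- against at most 0.0584 CPM in WT, and the pooled counts of 177 against 1 gave a ratio of 187 (95% interval 33.1 to 7421, exact, counting error only). In WT 2, a count of 0 allows up to 9.98 CPM, which is above the level of 2 of the 3 AMPK-/- libraries, and the difference is seen in the deep libraries. In whole tissue, more cells that make a peptide and more of its RNA in each cell cannot be told apart.

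Other peptides of the visceral and respiratory columns were higher in AMPK-/- with less even libraries. Cartpt, the precursor of the feeding-related CART peptide, stood at 2.44, 13.3 and 2.33 CPM in WT and 11.5, 17.2 and 12.1 CPM in AMPK-/- (a log2 fold change of 2.39 with SE 0.38), where the high WT value is the 4 counts of the shallow library. Vip (vasoactive intestinal peptide) measured 0.593, 3.33 and 0.875 CPM in WT but 6.61, 3.11 and 6.04 CPM in AMPK-/- (a log2 fold change of 2.63 with SE 0.53), again with the highest WT value in the shallow library, from 1 count. Both deep AMPK-/- libraries lay above both deep WT libraries for Cartpt and for Vip.
Calca and Calcb encode the 2 forms of calcitonin gene-related peptide, a vasodilator of sensory and parabrachial neurons. Calca was at 5.60, 6.66 and 7.06 CPM in WT and 17.9, 15.3 and 18.1 CPM in AMPK-/- (a log2 fold change of 1.40 with SE 0.28), without overlap. Calcb followed with 0.79, 0 and 2.80 CPM in WT but 6.54, 4.99 and 3.02 CPM in AMPK-/- (a log2 fold change of 1.65 with SE 0.48). Its 0 in the shallow WT 2 allows up to 9.98 CPM, above every AMPK-/- value, and its 3.02 CPM is 1 count. Calca and Calcb are close in sequence, and how reads shared between them were counted is not given in the sources used here. Sensory ganglion markers (11 of 11 listed) summed to 10.99, 46.6 and 30.2 CPM in WT and 121, 40.5 and 63.5 CPM in AMPK-/-, with Mrgprd and Tlx2 at 0 in every WT library and Scn10a and Mrgprd at 0 in every AMPK-/- library, and their part in the Calca and Calcb values was not tested.

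**Figure D2:**
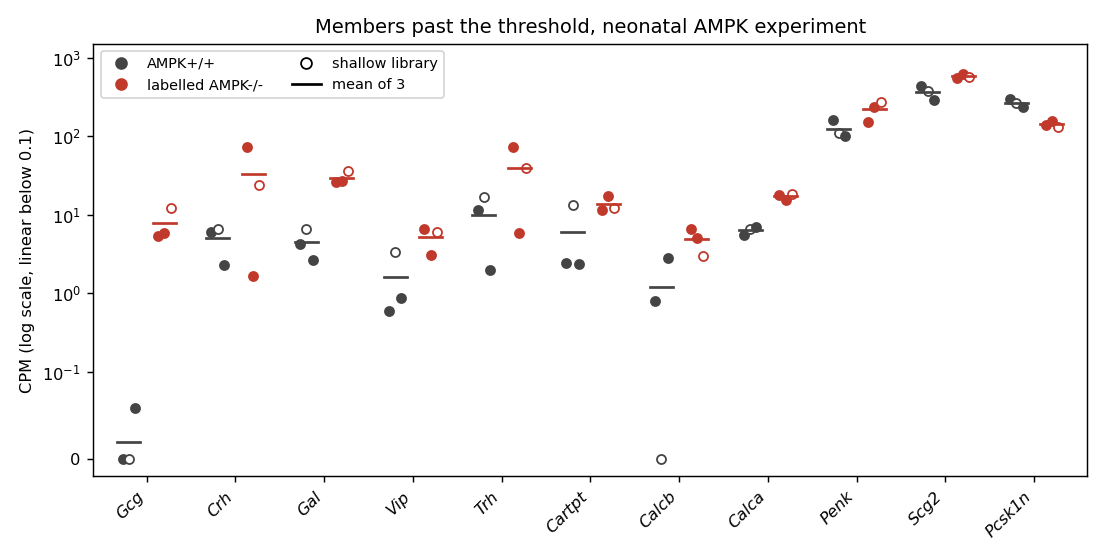
CPM (log axis, linear below 0.1) of the 11 members past the threshold in the AMPK experiment, ordered by fold change. Points are libraries (grey, WT; red, labelled AMPK-/-; open, shallow), and bars are means of 3. Gal, Gcg, Calca, Calcb, Scg2 and Pcsk1n show no overlap, which for Gcg and Calcb rests on the deep libraries. The red points of Crh and Trh spread over more than the grey ones.

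Trh and Crh were high in some of the AMPK-/- libraries and not in all of them. Trh, which encodes thyrotropin-releasing hormone, a peptide of caudal raphe neurons that excites respiratory motor output, stood at 11.4, 16.6 and 1.98 CPM in WT but at 73.3, 5.89 and 39.3 CPM in AMPK-/- 1 to 3 (a log2 fold change of 2.49 with SE 0.64). Crh, the corticotropin-releasing hormone of Barrington's nucleus and other stress-related cells, stood at 6.12, 6.66 and 2.28 CPM in WT and 73.5, 1.68 and 24.2 CPM in AMPK-/- (a log2 fold change of 3.07 with SE 0.75). The second AMPK-/- library lay within the WT range for Trh and below it for Crh, while the first held the highest value of both. Without AMPK-/- 1 the log2 fold change of Crh was -0.10 and that of Trh 0.67.
Markers of region and of other cells differed between these libraries. Tph2, the tryptophan hydroxylase of serotonergic neurons, was at 2.77, 6.66 and 0.7 CPM in WT and 134, 3.63 and 69.5 CPM in AMPK-/- 1 to 3, and the serotonergic list (8 of 8 listed, none at 0 throughout a group) summed to 59.3, 59.9 and 40.0 CPM and 424, 63.7 and 205 CPM. Caudal hindbrain Hox genes (11 of 11 listed, none at 0 throughout a group) ran the other way, at 376, 263 and 239.5 CPM in WT and 58.6, 341 and 205 CPM in AMPK-/-. Gal and Gcg did not follow this order and were as high in AMPK-/- 2 as in AMPK-/- 1. Rostral hindbrain and isthmus genes (9 of 9 listed) summed to 35.9, 26.6 and 32.2 CPM in WT and 16.1, 23.8 and 15.1 CPM in AMPK-/-, and choroid plexus genes (7 of 7 listed) to 21.1, 33.3 and 27.5 CPM and 73.5, 47.6 and 133 CPM. Both lists, like the serotonergic one, separated the groups in these sums. In WT 2, however, each read was worth 3.33 CPM, and 5 of the 9 rostral genes were at 0. The order of its rostral and serotonergic sums against AMPK-/- 2 is therefore not established. Fgf8 was at 0 in every library. The part of these tissue differences in the values of Gal, Gcg, Trh, Crh and the other members was not tested.

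**Figure D3:**
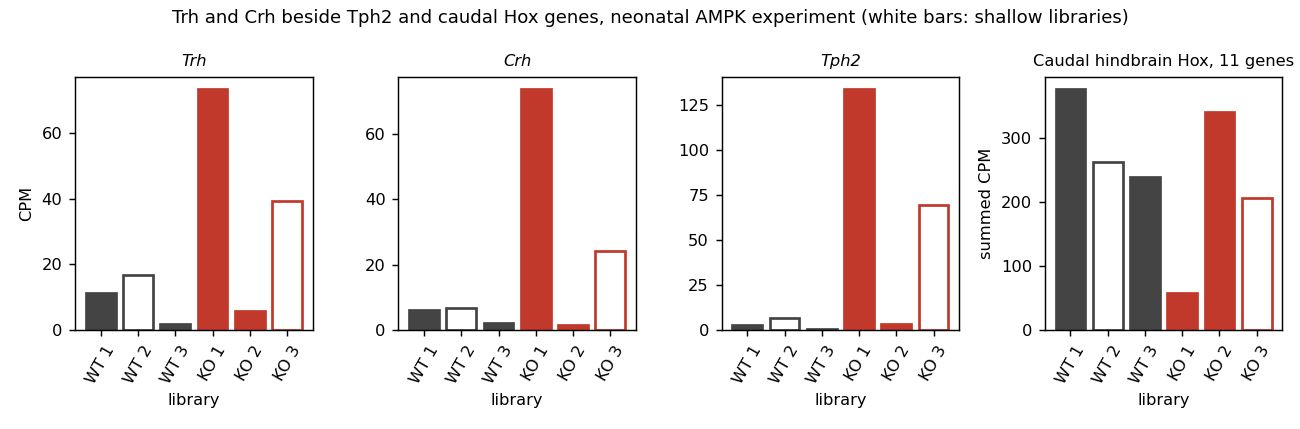
CPM of Trh, Crh and Tph2 and summed CPM of 11 caudal hindbrain Hox genes in each library of the AMPK experiment (grey, WT; red, KO, labelled AMPK-/-; white fill, shallow library). Trh, Crh and Tph2 are highest in AMPK-/- 1, the library in which the Hox genes are lowest.

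Of the 3 opioid precursors tested, Penk passed the threshold. Penk stood at 159, 109.8 and 101 CPM in WT and 154, 236 and 272 CPM in AMPK-/- (a log2 fold change of 0.76 with SE 0.21), and AMPK-/- 1 lay within the WT range. Pdyn (dynorphins) and Pnoc had log2 fold changes of -0.19 and -0.14, with ranges that overlapped.
Among the granins, Scg2 was at 435, 373 and 292 CPM in WT and 559.8, 617 and 562 CPM in AMPK-/- (a log2 fold change of 0.67 with SE 0.17), without overlap. The other 4 granins had log2 fold changes from -0.11 (Vgf) to 0.24 (Chgb) and did not pass. Chga was at 238 ± 7.66 and 242 ± 10.4 CPM (SD, n = 3).
Pcsk1n, the convertase inhibitor, was the one member lower in AMPK-/-. It fell from 295, 266 and 239 CPM in WT to 138, 156 and 129.9 CPM (a log2 fold change of -0.90 with SE 0.16). Its target Pcsk1 measured 39.6, 33.3 and 32.4 CPM in WT but 45.3, 58.5 and 42.3 CPM in AMPK-/-, also without overlap, and did not pass the threshold (a log2 fold change of 0.50 with SE 0.20). The remaining enzymes did not pass. Cpe was at 735, 602 and 576 CPM in WT and 685, 745 and 755 CPM in AMPK-/- (a log2 fold change of 0.18 with SE 0.16), and the log2 fold changes of Pcsk2 and Pam were 0.07 and 0.03.
Adcyap1, which encodes PACAP, was at 40.4, 46.6 and 24.0 CPM in WT and 45.3, 56.5 and 72.5 CPM in AMPK-/- (a log2 fold change of 0.68 with SE 0.23), and the other 12 tested precursors had log2 fold changes between -0.48 (Nppc) and 0.59 (Nts) that did not pass. Sst, the highest of them by RPKM, was at 87.2, 53.2 and 35.4 CPM in WT and 34.0, 68.0 and 39.3 CPM in AMPK-/- (a log2 fold change of -0.28 with SE 0.28), and Apln at 35.5, 26.6 and 41.2 and 35.3, 37.1 and 48.4 CPM (a log2 fold change of 0.03 with SE 0.20).

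These counts changed with the libraries left out. In such fits, the removal of a shallow library and the loss of a replicate cannot be told apart. Without WT 2 and AMPK-/- 3 together, 2 of the 32 members passed, Gal and Gcg, among 6 genes in all. Both were known when the list was proposed, and this fit was chosen after seeing the data, so nothing is read from their passing. Without WT 2 alone, 7 passed, beside 5.8% of all genes, and without AMPK-/- 3 alone, 6 did, beside 3.31%. Without WT 3, the library with muscle genes, 8 passed, beside 3.1% of all genes. With every library kept, the share over all genes was 8.94%. Penk and Scg2 no longer passed without WT 2, WT 3 or AMPK-/- 3, Calcb without WT 1, WT 2, AMPK-/- 1 or AMPK-/- 3, Trh without WT 2, WT 3, AMPK-/- 1 or AMPK-/- 3, and Crh without AMPK-/- 1 or AMPK-/- 3. Members' genes were short, with a median length of 1920.5 bases against 3927 over the genes tested, and the median log2 fold change of all genes ran from 0.55 in the shortest 10% of genes to -0.26 in the longest 10%. With the length trend removed 9 members passed, without Penk, Scg2 and Calcb and with Pcsk1, and with length and GC trends removed 8 did. Over all genes, 5.18% and 2.09% passed in these fits.

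In Lmx1b-/- embryos, no member passed the threshold against WT. The 4 genes that did, 0.0184% of those tested, were Lmx1b itself, the serotonergic Tph2 and Slc6a4, and Calb1. At an unadjusted p under 0.05 there were 3 members, Calca, Calcb and Sst, or 9.38% of the 32 tested, against 8.09% of all genes. The median log2 fold change was 0.03 over the members and 0.01 over all genes.
Sst, the inhibitory peptide of preBötzinger and other medullary interneurons, was at 79.4, 52.5 and 61.0 CPM in WT and 48.0, 48.3 and 52.0 CPM in Lmx1b-/- (log2 fold change -0.38, SE 0.17, adjusted p = 0.617). All 3 Lmx1b-/- values lay below those of WT. The share of all genes without overlap was not computed for Lmx1b-/- against WT. Calca ran the other way, from 4.08, 4.81 and 3.18 to 5.52, 6.09 and 5.46 CPM (log2 fold change 0.51, SE 0.17, adjusted p = 0.544).
Trh, a transmitter shared by many serotonergic neurons, was at 2.08, 1.49 and 1.26 CPM in WT and 1.23, 1.10 and 1.14 CPM in Lmx1b-/-, with every Lmx1b-/- library just below the lowest WT library (log2 fold change -0.47, SE 0.26, adjusted p = 0.655). Tac1, the substance P precursor that is also found in raphe neurons, was at 20.5, 16.0 and 23.4 CPM in WT and 18.6, 20.8 and 22.3 CPM in Lmx1b-/- (log2 fold change 0.04, SE 0.19, adjusted p = 0.969). Tph2 in the same libraries was at 11.6, 8.90 and 9.85 CPM in WT and 0.42, 0.446 and 0.265 CPM in Lmx1b-/-.
Cck (cholecystokinin) had tight values in both groups, 8.79, 8.62 and 8.88 CPM in WT and 4.91, 4.96 and 4.82 CPM in Lmx1b-/- (log2 fold change -0.84, SE 0.40, adjusted p = 0.627). In a fit of these 6 libraries alone, Cck passed the threshold (log2 fold change -0.87, adjusted p = 0.0418), and the spread of the Lmx1b+/- libraries, at 44.9, 10.7 and 13.8 CPM, entered the other fit. Cck was singled out after its values were seen. Gal and Gcg, the members that stood apart in the AMPK experiment, did not pass. Gal had 3.48, 4.33 and 2.75 CPM in WT and 3.52, 3.42 and 3.102 CPM in Lmx1b-/- (log2 fold change -0.07, SE 0.34) and Gcg 0.281, 0.935 and 0.158 CPM in WT and 0.71, 0.149 and 0.318 CPM in Lmx1b-/- (log2 fold change -0.18, SE 0.69).

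**Figure D4:**
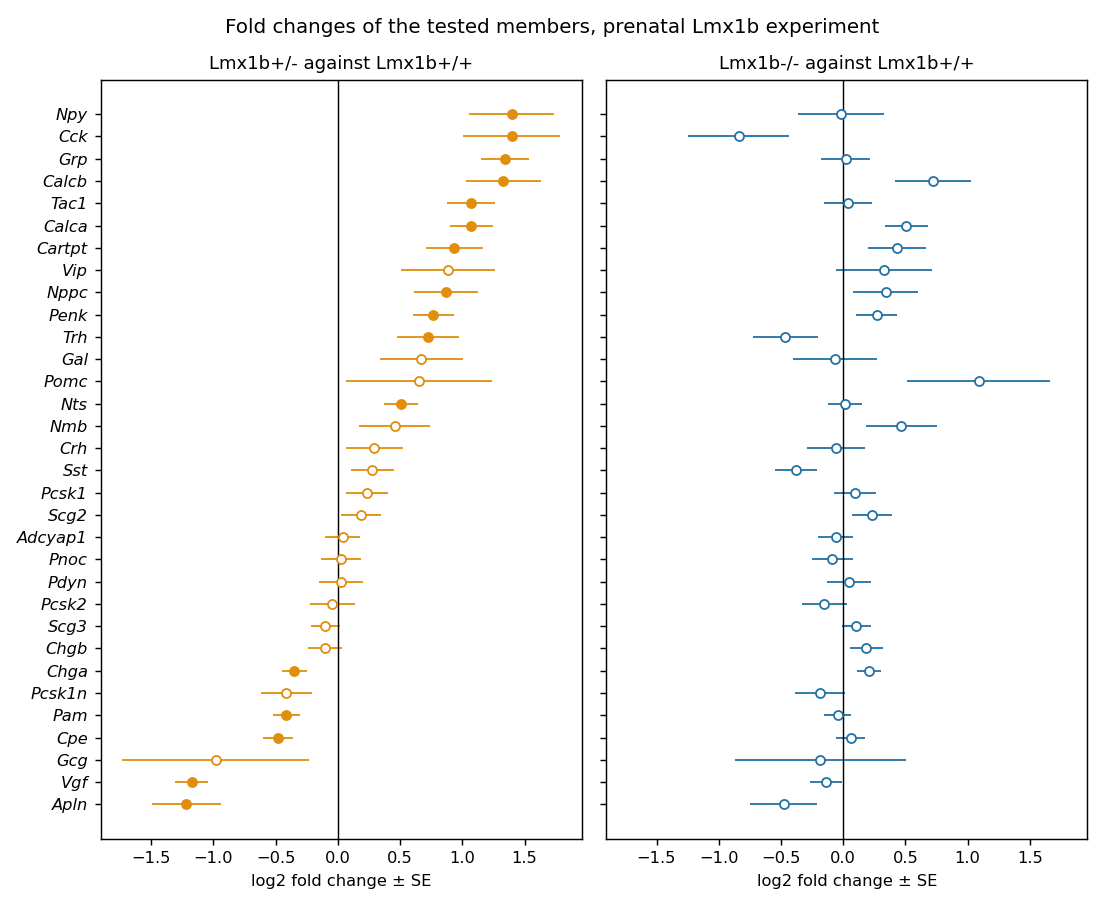
Log2 fold change ± SE (edgeR fit of 9 libraries) of the 32 tested members in Lmx1b+/- (left) and Lmx1b-/- (right) against WT, ordered by the left panel. Filled points passed an adjusted p under 0.05: 16 on the left and 0 on the right.

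In the libraries labelled Lmx1b+/-, 11 peptide precursors were higher than in WT, and 4 granin and processing genes and Apln were lower. Of the 32 tested members, 11 rose (34.4%, against 19.4% of all genes) and 5 fell (15.6%, against 17.3% of all genes). The 11 that rose were all precursors, and the 5 that fell were Apln, 2 of 5 granins and 2 of 5 processing genes. Groups did not overlap for 15 members (46.9%, against 45.3% of all genes). The median log2 fold change was 0.29 over the members and -0.03 over the 21729 genes tested.
Tac1 rose from 20.5, 16.0 and 23.4 CPM in WT to 57.4, 35.3 and 33.6 CPM in Lmx1b+/- (log2 fold change 1.07, SE 0.19, adjusted p = 0.000883). Grp, the gastrin-releasing peptide of neurons that drive sighs, rose from 2.57, 2.74 and 3.29 to 9.01, 5.71 and 7.20 CPM (log2 fold change 1.34, SE 0.19, adjusted p = 0.000173). In both genes every Lmx1b+/- library lay above every WT library.
Npy rose from 10.4, 9.87 and 10.5 to 47.9, 14.5 and 19.1 CPM (log2 fold change 1.40, SE 0.34, adjusted p = 0.00646), and Cck from 8.79, 8.62 and 8.88 to 44.9, 10.7 and 13.8 CPM (log2 fold change 1.40, SE 0.39, adjusted p = 0.0134). Both means were set largely by Lmx1b+/- 1: without it the log2 fold change was 0.70 for Npy and 0.48 for Cck, and both still passed. Caudal hindbrain Hox genes were also highest in that library, at 813, 406 and 197 CPM in Lmx1b+/- 1 to 3 against 167, 282 and 146 CPM in WT, and their part in these values was not tested.
Penk rose from 41.3, 57.6 and 38.9 to 60.6, 86.7 and 86.9 CPM (log2 fold change 0.77, SE 0.17, adjusted p = 0.00294). Calca rose from 4.08, 4.81 and 3.18 to 9.05, 8.84 and 7.35 CPM (log2 fold change 1.07, SE 0.17, adjusted p = 0.000407) and Calcb from 0.633, 1.28 and 1.01 to 1.77, 2.97 and 2.64 CPM (log2 fold change 1.33, SE 0.30, adjusted p = 0.0039). Sensory ganglion markers (11 of 11 listed) summed to 60.2, 86.0 and 63.6 CPM in WT and 110.2, 109.8 and 101 CPM in Lmx1b+/-, with Mrgprd at 0 in every library of both and Tlx2 at 0 in WT, and their part in the calcitonin family's rise was not tested.
Cartpt rose from 5.06, 4.02 and 3.20 to 10.6, 6.81 and 6.03 CPM (log2 fold change 0.94, SE 0.23, adjusted p = 0.00648) and Nts, the neurotensin precursor, from 7.60, 7.03 and 6.29 to 9.26, 10.5 and 9.90 CPM (log2 fold change 0.51, SE 0.13, adjusted p = 0.00955). Nppc was at 1.97, 3.81 and 2.30 CPM in WT and 6.15, 3.77 and 4.80 CPM in Lmx1b+/- (log2 fold change 0.87, SE 0.26, adjusted p = 0.0177). Trh was at 2.08, 1.49 and 1.26 CPM in WT and 3.33, 2.06 and 2.55 CPM in Lmx1b+/- (log2 fold change 0.73, SE 0.25, adjusted p = 0.0358). Both overlapped between the groups. Trh no longer passed without WT 2, WT 3, Lmx1b+/- 1, Lmx1b+/- 3 or Lmx1b-/- 2, nor Nppc without WT 1, WT 3 or Lmx1b+/- 1.

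Vgf and Apln were the members that fell most in Lmx1b+/-. Vgf, a granin-like precursor induced by neurotrophins and activity, fell from 47.4, 48.3 and 43.0 CPM in WT to 21.2, 22.7 and 17.6 CPM (log2 fold change -1.17, SE 0.13, adjusted p = 2.93e-05). Apln, whose peptide acts on vessels and on fluid balance, fell from 11.5, 6.68 and 5.59 to 3.04, 3.32 and 3.78 CPM (log2 fold change -1.22, SE 0.28, adjusted p = 0.004). Neither overlapped between the groups.
Smaller decreases were measured for some of the granule genes. Cpe fell from 539.9, 490.0 and 553 to 423, 369.9 and 342 CPM (log2 fold change -0.48, SE 0.12, adjusted p = 0.0067), Pam from 53.9, 46.0 and 43.5 to 36.5, 38.8 and 32.2 CPM (log2 fold change -0.41, SE 0.11, adjusted p = 0.00866) and Chga from 112, 108 and 109 to 95.0, 83.4 and 80.2 CPM (log2 fold change -0.35, SE 0.10, adjusted p = 0.0134). The other granins, Chgb, Scg2 and Scg3, had log2 fold changes of -0.10, 0.19 and -0.10 and did not pass, nor did Pcsk1, Pcsk2 and Pcsk1n. In summed CPM, the 29 precursors came to 253, 235 and 224 in WT and 436, 307 and 329.6 in Lmx1b+/-, whereas the 5 processing genes came to 847, 693 and 781 in WT and 651, 569 and 513 in Lmx1b+/-. Cpe alone made up 63.7% to 70.8% of the processing sum in these libraries, so that this sum largely repeats its values.

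**Figure D5:**
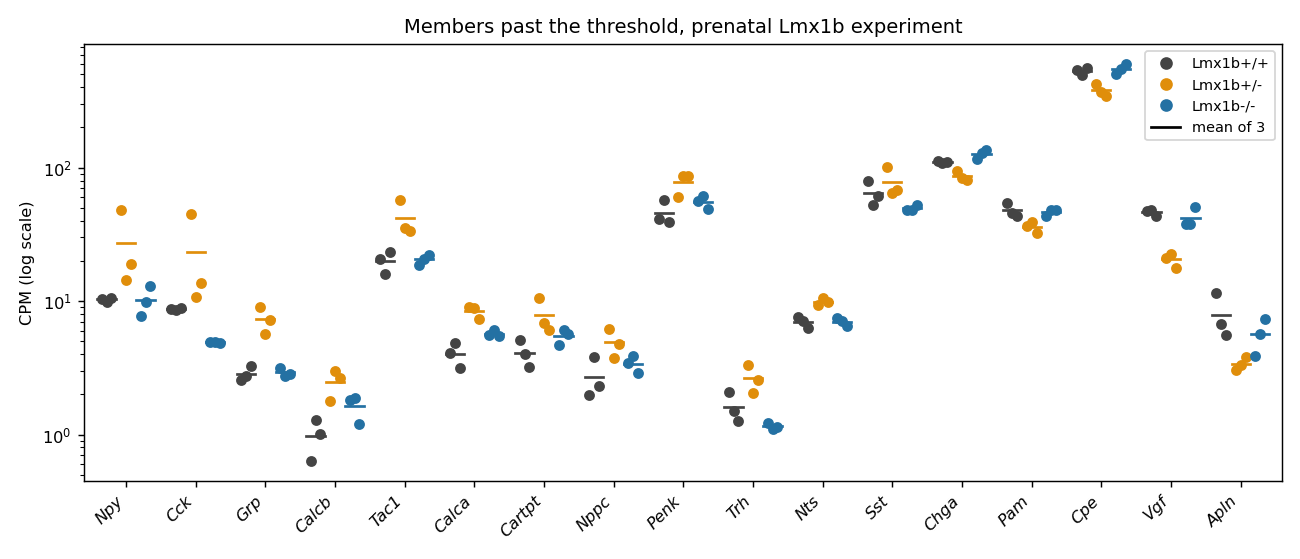
CPM (log axis) of the 17 members past the threshold in any comparison of the Lmx1b experiment, ordered by their fold change in Lmx1b+/- against WT. Points are libraries (grey, WT; orange, Lmx1b+/-; blue, Lmx1b-/-), and bars are means of 3. The orange means lie above the grey ones on the left and below them on the right, with overlapping points for Trh, Nppc and Sst, and for Cck the blue points lie below all others.

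The length of the genes moved with these values. Over all genes, the median log2 fold change in Lmx1b+/- against WT ran from 0.72 in the shortest 10% of genes to -0.33 in the longest 10%, and the members' median length was 1920.5 bases against 3432 over the genes tested. With the trend of each library with gene length removed, 9 of the 32 members passed, beside 28.9% of all genes. Without this removal 16 had passed, beside 36.7% of all genes. Tac1, Grp, Penk, Calca and Calcb remained higher, and Apln, Chga, Vgf and Cpe remained lower. With the trends with length and GC content removed, 10 passed, beside 28.2% of all genes. Of these members 7 were higher and 3 lower, and Nts was at -0.04. Scaled by library size alone, 8 members were higher and 6 lower, beside 36.2% of all genes in both directions. In that fit the median of all genes moved by -0.24.

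Lmx1b-/- embryos were also compared with the libraries labelled Lmx1b+/-, which are the ones used against WT above. In Lmx1b-/-, 4 members were higher (12.5%, against 11.5% of all genes) and 9 lower (28.1%, against 14% of all genes).
The lower members were Npy, Tac1, Grp, Trh, Cck, Nts, Penk, Calca and Sst. Cck was at 44.9, 10.7 and 13.8 CPM in Lmx1b+/- and 4.91, 4.96 and 4.82 CPM in Lmx1b-/- (log2 fold change -2.24, SE 0.41, adjusted p = 0.00157). Grp measured 3.16, 2.76 and 2.84 CPM in Lmx1b-/-, below its 9.01, 5.71 and 7.20 CPM in Lmx1b+/- (log2 fold change -1.32, SE 0.19, adjusted p = 0.000365). Trh, with 3.33, 2.06 and 2.55 CPM in Lmx1b+/-, was down to 1.23, 1.10 and 1.14 CPM (log2 fold change -1.19, SE 0.26, adjusted p = 0.00438). In these 3 genes every Lmx1b-/- library lay below every Lmx1b+/- library. The share of all genes without overlap was not computed for this comparison, so nothing is read from such separation. Npy in Lmx1b-/- was at 7.72, 9.92 and 12.9 CPM (log2 fold change -1.41, SE 0.34, adjusted p = 0.00904) and Tac1 at 18.6, 20.8 and 22.3 CPM (log2 fold change -1.03, SE 0.19, adjusted p = 0.00186), each again below all Lmx1b+/- libraries. Penk in Lmx1b-/- measured 56.3, 60.9 and 48.5 CPM (log2 fold change -0.50, SE 0.16, adjusted p = 0.0407), Calca 5.52, 6.09 and 5.46 CPM (log2 fold change -0.56, SE 0.17, adjusted p = 0.027) and Nts 7.43, 7.10 and 6.55 CPM (log2 fold change -0.50, SE 0.13, adjusted p = 0.0158).
Vgf was higher in Lmx1b-/-, at 38.0, 37.8 and 50.3 CPM where Lmx1b+/- held 21.2, 22.7 and 17.6 CPM (log2 fold change 1.04, SE 0.13, adjusted p = 0.000143), as were 3 further granule genes. Chga in Lmx1b-/- measured 115, 128 and 136 CPM (log2 fold change 0.55, SE 0.10, adjusted p = 0.00128), Cpe 507, 543 and 599 CPM (log2 fold change 0.54, SE 0.12, adjusted p = 0.00519) and Pam 43.5, 47.8 and 47.7 CPM (log2 fold change 0.37, SE 0.11, adjusted p = 0.0225). Sst passed in this comparison alone, at 101, 64.5 and 67.8 CPM in Lmx1b+/- and 48.0, 48.3 and 52.0 CPM in Lmx1b-/- (log2 fold change -0.66, SE 0.17, adjusted p = 0.0139), and no longer without Lmx1b+/- 1 or Lmx1b-/- 1. Calca no longer passed without Lmx1b+/- 1 or any 1 of the Lmx1b-/- libraries, Penk without Lmx1b+/- 2, Lmx1b+/- 3 or any 1 of the Lmx1b-/- libraries, Nts without Lmx1b-/- 2 or 3, and Pam without Lmx1b+/- 3, Lmx1b-/- 2 or Lmx1b-/- 3. With the length trend removed 7 members passed, Chga, Vgf and Cpe higher and Tac1, Grp, Trh and Cck lower, beside 16.9% of all genes. Scaled by library size alone, 6 were higher and 5 lower, beside 23.2% of all genes in both directions, with the median of all genes moved by 0.20.

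Genes around the family were read from 3 further lists: 53 receptors of these peptides, 32 other neuropeptides and 33 other genes of secretory granules and processing. In Lmx1b+/- against WT, 3 of 49 tested receptors rose and 13 fell, beside 19.4% and 17.3% of all genes. These 16 became 7 without WT 1, 9 without WT 3 and 8 without Lmx1b+/- 3, where 29.3%, 30.7% and 26.5% of all genes passed. The 3 with the lowest adjusted p were the neurotensin receptor Ntsr2 (log2 fold change -1.77, SE 0.22, adjusted p = 5.45e-05), the PACAP receptor Adcyap1r1 (log2 fold change -0.70, SE 0.10, adjusted p = 0.000149) and the corticotropin-releasing hormone receptor Crhr1 (log2 fold change -0.89, SE 0.16, adjusted p = 0.000998). Oligodendrocyte lineage genes (7 of 7 listed) summed to 353 to 408 CPM in WT and 241 to 306 CPM in Lmx1b+/-. Astrocyte genes (5 of 5 listed) summed to 747 to 1049 CPM in WT and 548 to 780 CPM in Lmx1b+/-. The part of these cells in the receptor values was not tested. Of 15 tested other neuropeptides 3 rose and 3 fell (3 in all without WT 1), led by Apela (log2 fold change 2.30, SE 0.43, adjusted p = 0.00107), a ligand of the apelin receptor. Of 33 other granule genes 6 rose and 12 fell, and 10 in all remained past the threshold without Lmx1b+/- 3. Scg5, which encodes the chaperone of the convertase Pcsk2, rose (log2 fold change 0.76, SE 0.10, adjusted p = 0.000119), as did Resp18 (log2 fold change 0.87, SE 0.13, adjusted p = 0.000219), and Ptprn2, a granule membrane protein, fell (log2 fold change -0.76, SE 0.12, adjusted p = 0.000285).
In Lmx1b-/- against WT none of the 49 receptors, 15 other neuropeptides and 33 granule genes tested passed in edgeR, limma or DESeq2, and 9, 2 and 2 of them had an unadjusted p under 0.05 in edgeR. In Lmx1b-/- against Lmx1b+/-, 10 receptors were higher and 1 lower, 1 other neuropeptide was higher and 2 lower, and 7 granule genes were higher and 4 lower, beside 11.5% and 14% of all genes. The 11 receptors became 7 without Lmx1b-/- 3, the 3 other neuropeptides 1 without Lmx1b+/- 3 or Lmx1b-/- 1, and the 11 granule genes 5 to 7 without Lmx1b+/- 1, Lmx1b+/- 3, Lmx1b-/- 1 or Lmx1b-/- 3. Over all genes, 15.7% to 20.8% passed in these fits.
In the AMPK comparison, where the values are a description, 2 of 40 tested receptors were higher and 2 lower, 1 of 8 other neuropeptides was higher, and 4 of 32 granule genes were higher and 2 lower, beside 3.77% and 5.17% of all genes. Without both shallow libraries, and with limma, none of the 3 lists had a gene past the threshold. The melanocortin receptor Mc4r was higher (log2 fold change 1.92, SE 0.48) and the delta opioid receptor Oprd1 lower (log2 fold change -1.47, SE 0.40), and Nppb, the B-type natriuretic peptide, was higher (log2 fold change 3.87, SE 0.79).

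The members that failed the filter were at or near 0. Avp, Oxt, Hcrt and Pmch, the peptides of hypothalamic neurons, had at most 8 counts in any library of either experiment. Hcrt (hypocretin) had 0 counts in all 6 AMPK libraries, which allows up to 0.198 CPM in the deep ones. The hypothalamic marker list (8 of 8 listed) summed to 0.724 to 3.33 CPM in the neonatal and 11.7 to 29.9 CPM in the prenatal libraries, with Six6 and Fezf1 at 0 in every neonatal library. Ucn (urocortin) had at most 7 counts, and Nppa, the atrial natriuretic peptide, at most 10. Pomc, the precursor of melanocortins, was not tested in the AMPK experiment, with 0 to 15 counts, and did not pass in the Lmx1b experiment (0.492, 0.658 and 0.383 CPM in WT, 0.29, 0.484 and 1.56 in Lmx1b+/- and 1.87, 0.772 and 0.61 in Lmx1b-/-). Nmu, the neuromedin U precursor, had 0 to 11 counts in the prenatal libraries, and in the neonatal ones its level was 3.62, 0 and 1.46 CPM in WT and 0.529, 5.12 and 0 CPM in AMPK-/-.
Of the other members without a call in any comparison, Adcyap1, Nmb, Pdyn, Pnoc, Chgb, Scg3, Pcsk1 and Pcsk2 were each measured above 1 CPM in every prenatal library. Adcyap1, for instance, was at 20.3, 21.6 and 20.0 CPM in WT, 24.8, 16.6 and 22.2 in Lmx1b+/- and 19.4, 21.9 and 18.2 in Lmx1b-/- embryos, and Scg3, which binds chromogranin A in the granule, at 114, 121 and 121, then 127, 98.7 and 106, then 111, 138 and 134 CPM in the same order. Gal, the leading member of the AMPK comparison, was at 9.59, 3.097 and 4.11 CPM in Lmx1b+/- (log2 fold change 0.67, SE 0.34, adjusted p = 0.136) and Gcg at 0.398, 0.161 and 0.12 CPM (log2 fold change -0.98, SE 0.75, adjusted p = 0.33), without a call in any Lmx1b comparison. Crh was at 2.36, 3.26 and 2.48 CPM in WT, 2.71, 3.90 and 3.27 in Lmx1b+/- and 1.97, 3.27 and 2.52 in Lmx1b-/-, and Scg2 at 195, 224 and 200.2, then 209, 188 and 308, then 217, 269 and 239.6 CPM, also without a call.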

How the data were processed

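RNA was isolated with TRIzol and sequenced from a directional kit on a HiSeq 2000. Reads were aligned by the authors with HISAT2 to GRCm39 per the labels. The counting tool, annotation, strand setting and handling of molecular identifiers are not given in the sources used here. The deposited values are raw read counts per Ensembl gene in 2 tables, with 0 columns of other samples, and RPKM per gene, deposited beside the counts, were made by the authors and served for levels between genes and for one alternative test. Of 57180 identifiers, 51884 matched a mouse symbol.

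Counts were scaled by TMM, filtered with filterByExpr and tested with edgeR's quasi-likelihood test (edgeR 4.0.16, R 4.3.3), 1 fit per table over all its groups without covariates, with Benjamini-Hochberg adjustment over all genes tested and a threshold of 0.05. Folds are log2 values. Alternatives used limma 3.58.1 on log2(RPKM + 1) and log2(RPKM + 0.1), DESeq2 1.42.0, other scalings and filters, a replicate block, trends with length and GC content removed, and libraries left out. The steps were tested on simulated data. No source ties libraries to separate animals, so p-values measure the spread between these samples. CPM rest on the totals printed in the report, and a floor is 3 counts.

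The members and lists were chosen with earlier results of these data known. Printed by library were members past the threshold, Gal, Gcg and the member of highest RPKM in each role group, and others are given as examples of their group. Of the pathway lists, at most 3 genes past the threshold with the lowest adjusted p were named. Same-numbered WT and Lmx1b-/- libraries deviated together (r = 0.125, 0.248 and 0.116 across genes), which meets the bar set for pairing (over 0.1 in every pair), and no member passed with the block either. The numbers match in the sample titles only, since WT 3 carries another number in its library and column names, so a shared origin is not established. For the other groups r ran from -0.232 to 0.00566 and the numbers were not treated as pairs. Promoters are RefSeq's on GRCm38.p6, a build other than that of the counts, and were matched by symbol.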

Additional observations from a re-analysis of the deposited data

How the results depend on the processing

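The 11 members past the threshold in AMPK-/- against WT (10 higher, 1 lower) became 3 with DESeq2. These were Penk and Scg2, higher, and Pcsk1n, lower. DESeq2 gave 18 of the 32 an adjusted p, Gal and Gcg not among them, and 10 members had an unadjusted p under 0.05. Over all genes, 8.94% passed in edgeR, and in DESeq2 9.35% of those given an adjusted p. The same 3 members passed where a minimum of 10 counts per library left 13 tested, again without Gal and Gcg, beside 20.7% of all genes tested. With limma on log2(RPKM + 1) and on log2(RPKM + 0.1), 0 passed. There, 8 and 6 members had an unadjusted p under 0.05 and no gene of the table passed. The limma adjusted p was 0.168 and 0.204 for Gal and 0.18 and 0.175 for Gcg. Without both shallow libraries 2 remained, among 6 genes in all. Leaving out 1 library gave 6 to 14 (5 to 13 higher), with 6 without AMPK-/- 3 and 7 without WT 2. The share over all genes in these fits ran from 3.1% to 16.4%. With the replicate block 12 passed, beside 7.76% of all genes. In Lmx1b+/- against WT, 16 became 8 where a 2-fold change was also required, 9 with the length trend removed and 10 with length and GC trends removed, with 14 to 18 when 1 library was left out. In Lmx1b-/- against Lmx1b+/-, 13 became 6, 7 and 7 in the same order, with 9 to 14 when 1 library was left out. Over all genes, the share in Lmx1b+/- against WT was 36.7%, then 28.9% and 28.2% with the trends removed. It was 26.5% to 37.2% with 1 library left out. In Lmx1b-/- against Lmx1b+/- the share was 25.5%, then 16.9% and 17.9%, and 15.7% to 26.8% with 1 library left out. The replicate block left 16 and 13, beside 33.3% and 21.7% of all genes. In Lmx1b-/- against WT, 0 became 1, Cck, without a filter and in the fit of the 6 libraries compared. It was 0 with limma and DESeq2, as in edgeR, each with 3 or 4 members at an unadjusted p under 0.05. These trend-removed fits and the fit without both shallow libraries were chosen after seeing the data. Directions turned, in log2, for Crh without AMPK-/- 1 (-0.0999, up to 3.88 without WT 1), Nts in Lmx1b+/- with length and GC trends removed (-0.0441), Prkaa2 without WT 3 (0.0329, down to -0.355 without WT 1) and with the length trend removed (0.0392), and Lmx1b in Lmx1b+/- against WT with limma (-0.0296 and -0.0466), without WT 3 (-0.0165) and without Lmx1b+/- 1 (-0.299, up to 0.558 without WT 1). The cause was not tested. Depth limits the members near 0, above all in the 2 shallow libraries.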
